A study of Homo sapiens with 8 samples.

Results

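The genes described here are 10 secreted factors known for acting on blood vessels, lymphatic vessels or the cells around them. They are endothelin 1 (EDN1), the vascular endothelial growth factors VEGFA, VEGFB and VEGFC, placental growth factor (PGF), the angiopoietins ANGPT1 and ANGPT2, angiopoietin-like 4 (ANGPTL4), platelet-derived growth factor B (PDGFB) and fibroblast growth factor 2 (FGF2). They were chosen by name, and all of their RefSeq transcripts were used, 29 of the 48175 transcripts in the expression table. RNA was sequenced from HMLE cells, an immortalized breast epithelial line of human origin, that carried either a lentiviral scrambled shRNA (SHC002) or a single lentiviral shRNA against the transcription factor SOX4. All cells had been selected with puromycin at 0.5 µg/mL. Both kinds of cells were either untreated or exposed to TGF-β for 16 h, at a dose that is not given in the sources used here. This gave 4 groups of 2 libraries: untreated scrambled-shRNA cells, TGF-β-treated scrambled-shRNA cells, untreated SOX4-shRNA cells and TGF-β-treated SOX4-shRNA cells. Because a single SOX4 shRNA was used, an effect of SOX4 loss and any other effect of that shRNA cannot be told apart. Nothing in the labels ties the 2 libraries of a group to separate cultures, so p-values here reflect only how far these samples spread, and that spread may be technical.

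Most of these factors are made by one cell and read by another. VEGFA is the main driver of blood vessel growth and is induced by low oxygen, VEGFC acts mainly on lymphatic endothelium, and VEGFB and PGF bind FLT1. EDN1 is a vasoconstrictor peptide first found in endothelium and is also made by epithelial cells. PDGFB recruits pericytes, FGF2 is a heparin-binding growth factor that lacks a classical signal peptide, ANGPT1 and ANGPT2 are ligands of the endothelial receptor TEK, and ANGPTL4 inhibits lipoprotein lipase and is also induced by low oxygen. TGF-β is a cytokine that drives epithelial-mesenchymal transition in such cells.

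Levels are in FPKM, that is reads per kilobase of transcript after scaling for library size, and a gene total is the sum over the transcripts of a gene. The deposited table had lost the decimal mark in 34.1% of its cells, so that a cell could be read in up to 3 ways that differ by factors of 10. For the members, marks were put back so that the values make whole reads. Where several readings did so, a score chose among them. It favours close libraries within a group, small differences between groups and usual levels, and the posterior comes from it. The values tested were thus partly chosen by the spread and the differences under test. Other transcripts without whole reads were restored by the score alone. The reading used for a member held at least 96.54% of the posterior, and for VEGFA it is conditional on a total between 25 and 90 FPKM and no transcript at 60 FPKM or above. The gene totals that were tested held 6040148 to 8110601 reads per library. SOX4 was 8.74 and 8.04 FPKM in untreated scrambled-shRNA cells, 18.7 and 17.6 FPKM with TGF-β, 0.923 and 1.02 FPKM in untreated SOX4-shRNA cells and 2.37 and 1.88 FPKM in SOX4-shRNA cells with TGF-β under a reading that held 88.3% of the posterior, so the 4 SOX4-shRNA libraries were the lowest. Exons of SOX4 overlap ENSG00000283480 on the opposite strand. Of the 7 epithelial markers, the 5 whose marks were settled (CDH1, EPCAM, KRT5, KRT14 and KRT17) were present in all libraries. Their sums also differed by group. They were 7249 to 7944 FPKM in untreated scrambled-shRNA cells and 8007 to 8154 FPKM with TGF-β. In SOX4-shRNA cells they were 5218 to 6084 FPKM untreated and 6866 to 7008 FPKM with TGF-β. These sums were nearly all KRT5, KRT14 and KRT17, and the 5 markers did not move together. With the SOX4 shRNA, KRT5 and KRT17 were lower with and without TGF-β. KRT14 was lower without TGF-β and higher with it. EPCAM was higher in both cases. Untreated, it was at 71.6 and 75.6 FPKM in scrambled-shRNA cells and at 97 FPKM or more in SOX4-shRNA cells. The CDH1 libraries overlapped in both cases. Of 9 endothelial markers, 7 stayed under 1 FPKM in all libraries (PECAM1, CDH5, VWF, CLDN5, ESAM, ERG and TIE1), and CDH5 was listed at 0 throughout. EGFL7 was not settled. Single markers named for other cell types moved with the groups. ROBO4, the 1 settled endothelial marker that reached 1 FPKM, was at 5.85 and 5.15 FPKM in untreated scrambled-shRNA cells and 9.53 and 10.5 FPKM with TGF-β. It was at 3.08 and 2.56 FPKM in untreated SOX4-shRNA cells and 8.05 and 10.4 FPKM with TGF-β. The sum of 4 pericyte markers was 19.6 to 25.5 FPKM without TGF-β and 28.7 to 35.0 FPKM with it. Of these, CSPG4 was at 2.25 to 3.69 FPKM without TGF-β and 7.23 to 12.4 FPKM with it. MCAM stayed between 16.5 and 21.4 FPKM, PDGFRB between 0.514 and 2.18 FPKM, and RGS5 at or under 0.302 FPKM. The sum of 4 settled fibroblast markers was 4.43 to 5.62 FPKM in scrambled-shRNA cells and 1.24 to 2.15 FPKM in SOX4-shRNA cells. That of 3 leukocyte markers was 9.38 to 9.94 and 3.37 to 6.17 FPKM, nearly all of it CD68, while CD3E was listed at 0 in all libraries and PTPRC reached 0.0167 FPKM. The part of other cells in the results was not tested. In bulk samples such as these, fewer cells of a type and less RNA per cell cannot be told apart.

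In untreated scrambled-shRNA cells the members covered a wide range of levels. VEGFC (50.7 ± 1.18 FPKM, SD, n = 2) and VEGFA (46.9 ± 10.1 FPKM) were the highest, and their libraries overlapped. The bounds put on the VEGFA reading fixed its place above the members other than VEGFC here. VEGFB followed at 15.3 ± 2.04 FPKM and ANGPTL4 at 12.7 ± 0.407 FPKM, with no overlap between them. PDGFB was at 7.62 ± 0.397 FPKM, above EDN1 at 5.86 ± 0.563 FPKM and FGF2 at 5.47 ± 0.275 FPKM, which overlapped each other. PGF was lower at 2.88 ± 0.282 FPKM. ANGPT1 and ANGPT2 were near the limit of detection, at 0.139 ± 0.00706 and 0.102 ± 0.0784 FPKM. The order changed with the group: in TGF-β-treated SOX4-shRNA cells VEGFA (73.4 ± 4.95 FPKM) lay above VEGFC (58.6 ± 1.11 FPKM), and PDGFB (27.9 ± 7.38 FPKM) lay above ANGPTL4 (14.9 ± 4.99 FPKM).

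**Figure D1:**
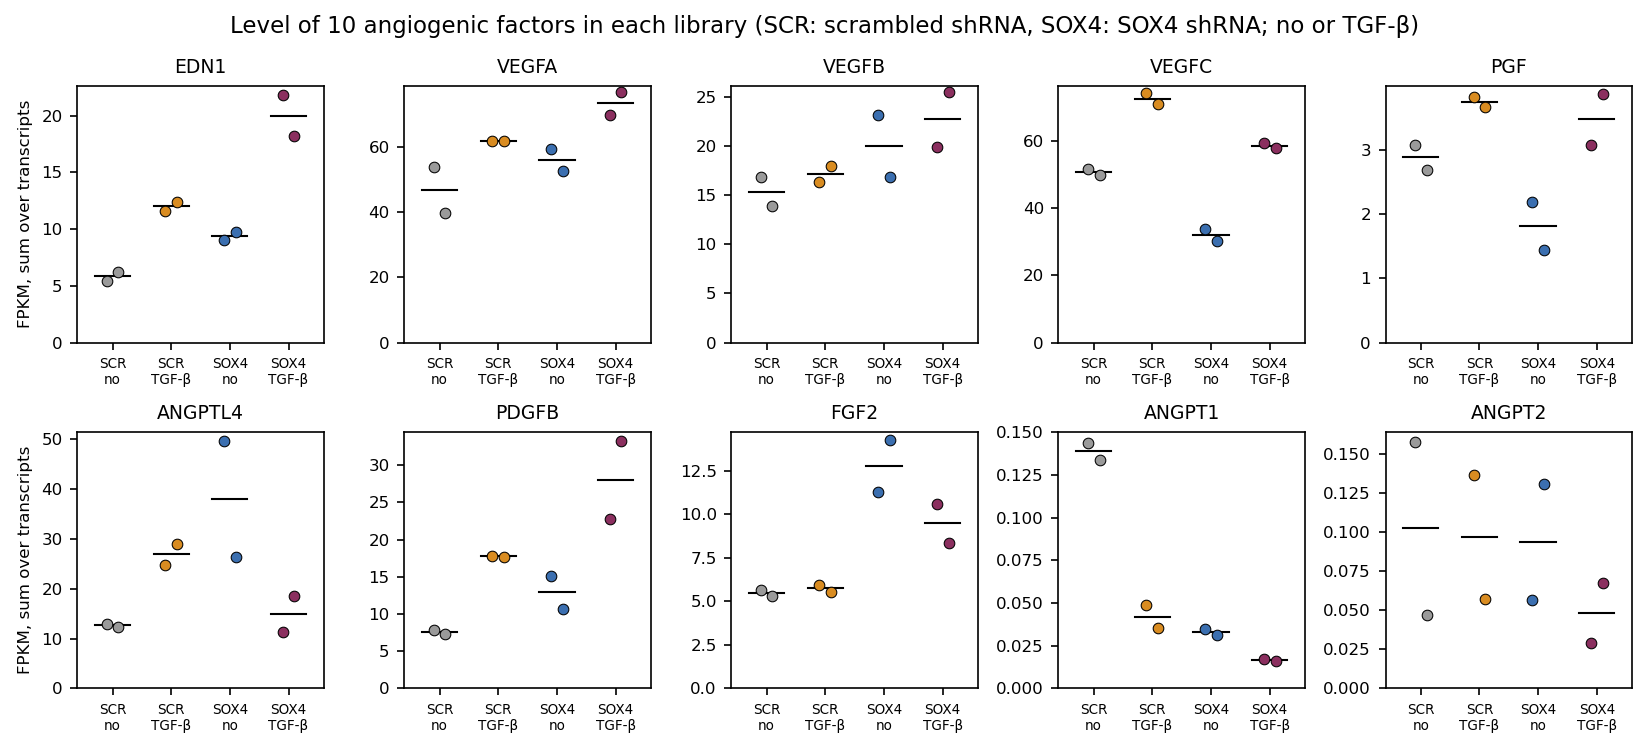
Gene totals (y axis, FPKM summed over transcripts, a separate axis from 0 for each gene) of the 10 members in each library (points, 2 per group) with the group mean (line). EDN1 and PDGFB were lowest in both untreated scrambled-shRNA libraries, VEGFC was lowest in both untreated SOX4-shRNA libraries, and ANGPT1 and ANGPT2 stayed under 0.2 FPKM.

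Changes were tested with limma on log2(FPKM + 1) in 1 fit of the 4 groups, a scale that understates the change of low genes. VEGFC and FGF2, which have 1 transcript each, were tested among 5301 such genes, and the other members as transcripts among 10145 transcripts. Gene totals were tested among 7124 genes as an alternative and are shown beside these, since several members have near-identical transcripts whose split moved between libraries of 1 group. ANGPT1 and ANGPT2 did not reach 1 FPKM in any library and were not tested. The other 8 members were, and a call is a Benjamini-Hochberg adjusted p under 0.05 over all features of the fit. The fit gives each gene 1 variance for all 4 groups, though the 2 libraries of a group lay further apart in SOX4-shRNA cells. Their mean chi-square per gene was 22.7 and 26.4 without and with TGF-β, against 9.83 and 3.84 in scrambled-shRNA cells. A call that holds without 1 library therefore does not show that the values of a group were steady. Leaving out 1 library moved the calls of a whole comparison as well. For TGF-β in scrambled-shRNA cells 477 gene totals were called with all libraries, 44 to 98 without any 1 of the 4 scrambled-shRNA libraries and 541 to 565 without any 1 of the SOX4-shRNA libraries, and the changes given below for single members are to be read beside that.

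With TGF-β in scrambled-shRNA cells 2 of the 8 members were called, EDN1 and VEGFC, both higher. In the same comparison limma called 6.75% of the 5301 single-transcript genes and 1.41% of the 10145 transcripts, in either direction, as in all shares given here. As gene totals 3 members were called (EDN1, VEGFC and PDGFB, all higher), against 6.70% of all gene totals. In SOX4-shRNA cells TGF-β raised VEGFC alone among the members as designed, against 7.23% of single-transcript genes and 2.30% of transcripts called. As gene totals 5 members were called there (EDN1, VEGFC, PDGFB and PGF higher, ANGPTL4 lower), against 7.24% of all gene totals. The SOX4 shRNA in untreated cells was followed by 2 calls, FGF2 higher and VEGFC lower, against 4.11% of single-transcript genes and 1.24% of transcripts. As gene totals 4 members were called (ANGPTL4, EDN1 and FGF2 higher, VEGFC lower), against 4.55%. With TGF-β present, 0 members were called for the SOX4 shRNA by limma as designed, against 3.79% of single-transcript genes and 1.04% of transcripts, and EDN1 alone as a gene total, against 4.11%. At an unadjusted p under 0.05, 5 members' gene totals differed in that comparison (EDN1, FGF2, VEGFC, ANGPTL4 and PDGFB), as did 1197 of all 7124.

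**Figure D2:**
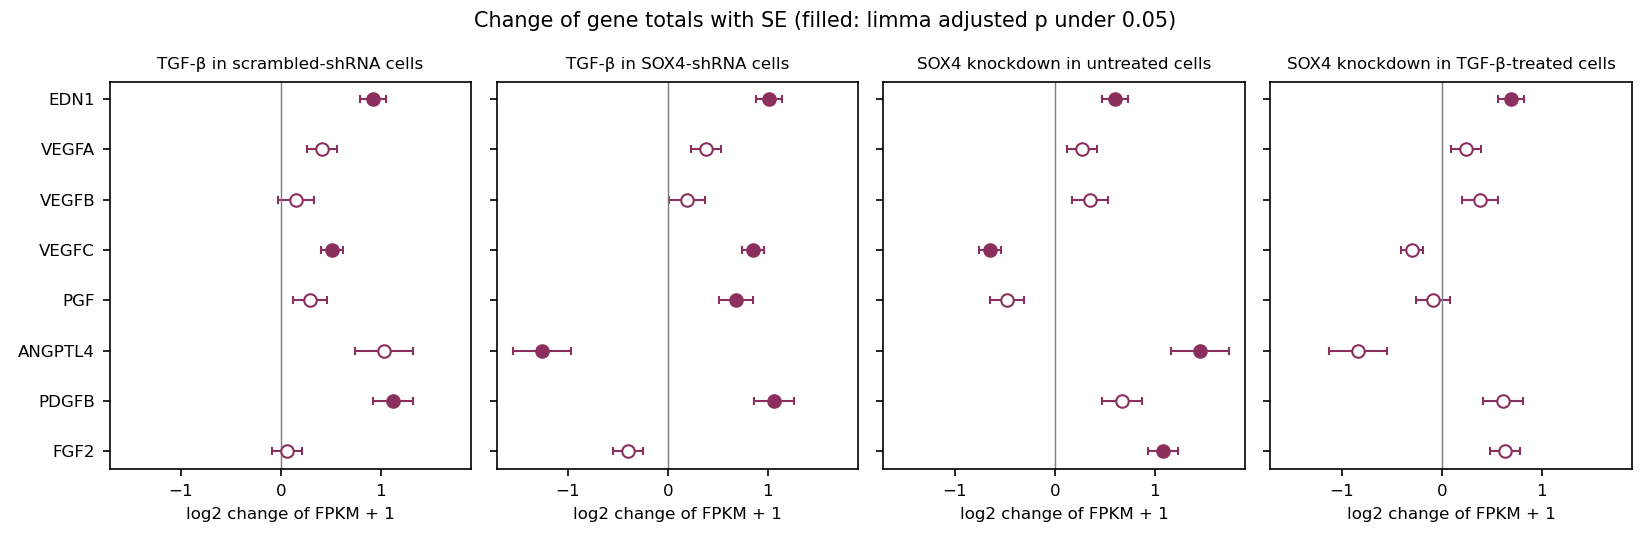
Change of the 8 tested gene totals in the 4 comparisons (x axis, log2 change of FPKM + 1, bars show the SE of the limma fit, filled points have an adjusted p under 0.05). EDN1 is filled in all 4 panels, and ANGPTL4 lies on opposite sides of 0 for TGF-β in the 2 kinds of cells.

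EDN1 was the one member called higher in all 4 comparisons when its transcripts were summed, both with TGF-β and with the SOX4 shRNA. Its 5 exons span positions 12290594 to 12297427 of chromosome 6, plus strand, in GRCh37, which is hg19. Its total was 5.46 and 6.26 FPKM in untreated scrambled-shRNA cells, 11.6 and 12.4 FPKM with TGF-β, 9.06 and 9.75 FPKM in untreated SOX4-shRNA cells, and 21.8 and 18.2 FPKM in SOX4-shRNA cells with TGF-β. The 4 groups did not overlap, and the highest was the one with both the SOX4 shRNA and TGF-β. These totals rest on 150 to 579 reads per library. The mean rose 2.04-fold with TGF-β in scrambled-shRNA cells and 2.13-fold in SOX4-shRNA cells, and was 1.60-fold higher in SOX4-shRNA than in scrambled-shRNA cells without TGF-β and 1.67-fold higher with it. The log2 changes of the total were 0.92 ± 0.13 (SE, limma adjusted p = 0.0072), 1.01 ± 0.13 (adjusted p = 0.0035), 0.60 ± 0.13 (adjusted p = 0.04) and 0.69 ± 0.13 (adjusted p = 0.026) in that order. The rise with TGF-β in SOX4-shRNA cells was called whichever library was left out. The rise with TGF-β in scrambled-shRNA cells was not called without untreated scrambled-shRNA library 1 or either TGF-β-treated scrambled-shRNA library (adjusted p from 0.082 to 0.091). The difference on knockdown without TGF-β was not called without any 1 of the 4 scrambled-shRNA libraries or the 2 untreated SOX4-shRNA libraries (0.084 to 0.28), nor with all libraries scaled to an equal median (0.051). With TGF-β it was not called without any 1 of the 4 scrambled-shRNA libraries or TGF-β-treated SOX4-shRNA library 1 (0.052 to 0.24).

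The 2 EDN1 transcripts in the table differ by 3 nt, by the lengths that gave whole reads (2100 and 2097 nt), and how the reads were shared between them was not steady. The longer form, NM_001955, was at 5.46 and 6.26 FPKM in untreated scrambled-shRNA cells, against 12.7 and 13.8 FPKM in SOX4-shRNA cells with TGF-β. The shorter form, NM_001168319, was under 0.01 FPKM in both untreated scrambled-shRNA libraries, and at 9.17 and 4.42 FPKM in SOX4-shRNA cells with TGF-β, which was 42.0% and 24.2% of the gene. In the 2 untreated SOX4-shRNA libraries it was at 1.20 and 0.0115 FPKM. As a transcript, NM_001955 was called for TGF-β in scrambled-shRNA cells alone (0.91 ± 0.14, limma adjusted p = 0.035). That call was lost without any 1 of the 4 scrambled-shRNA libraries or 1 of the TGF-β-treated SOX4-shRNA pair (0.064 to 0.28), and also if the trend with intensity was left out, all transcripts were kept whatever their posterior, or low ones were not filtered (0.065 to 0.088). In SOX4-shRNA cells its change with TGF-β was 0.54 ± 0.14 (limma adjusted p = 0.11). The shorter form changed by 2.31 ± 0.45 in those cells (limma adjusted p = 0.06). On knockdown with TGF-β it differed by 2.79 ± 0.45 (limma adjusted p = 0.0503), and it was called there without either untreated SOX4-shRNA library (0.043 and 0.036). Forms 3 nt apart share nearly all of their sequence, and the split between them was not read further.

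**Figure D3:**
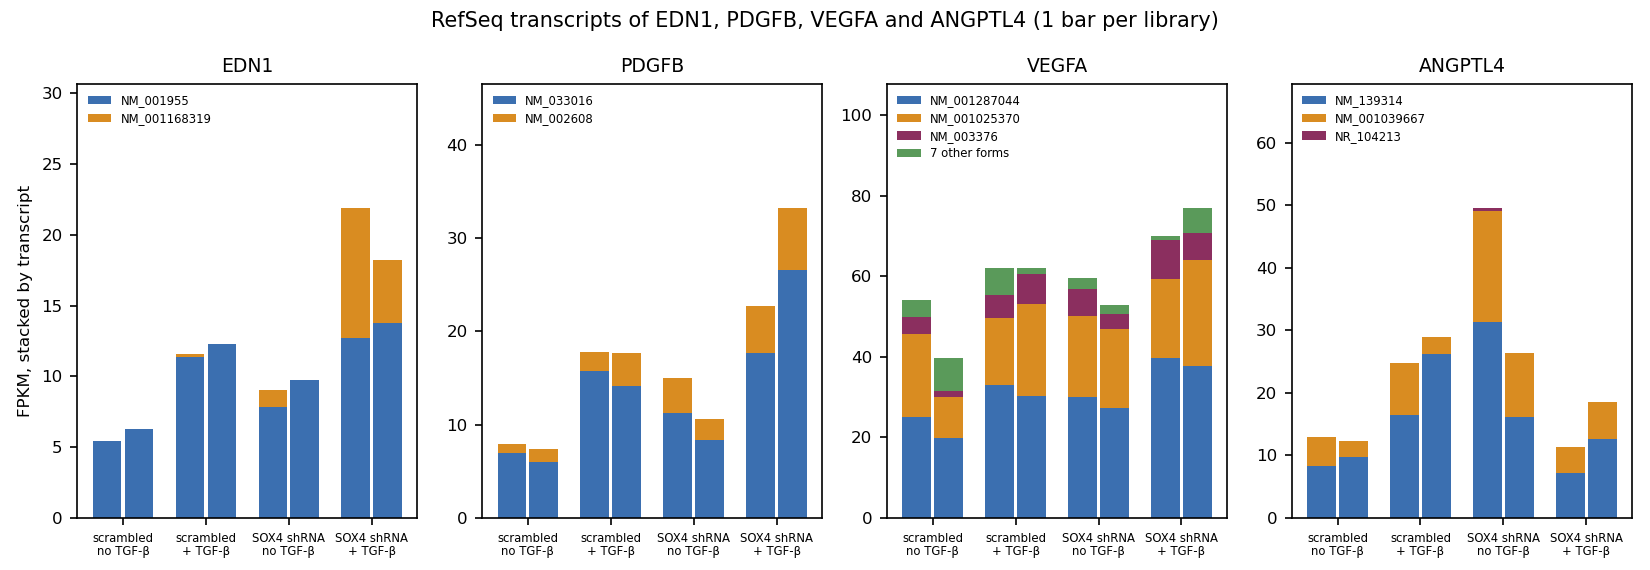
FPKM of EDN1, PDGFB, VEGFA and ANGPTL4 (y axis, from 0, a separate axis for each gene) in each library (1 bar each, 2 per group), stacked by RefSeq transcript. The shorter EDN1 form is visible mainly in SOX4-shRNA cells with TGF-β, whereas the leading PDGFB and VEGFA forms lead in all 8 libraries.

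VEGFC, the lymphatic growth factor, rose with TGF-β and was lower with the SOX4 shRNA. VEGFC is a 7-exon gene on chromosome 4 (GRCh37, 177604689 to 177714076, minus strand). It was at 51.6 and 49.9 FPKM in untreated scrambled-shRNA cells, 74.2 and 71.0 FPKM with TGF-β, 33.8 and 30.2 FPKM in untreated SOX4-shRNA cells and 59.3 and 57.8 FPKM in SOX4-shRNA cells with TGF-β. The 4 groups were fully apart, and both untreated SOX4-shRNA libraries were the lowest. The mean rose 1.43-fold with TGF-β in scrambled-shRNA cells (log2 change 0.51 ± 0.11, limma adjusted p = 0.030). In SOX4-shRNA cells it rose 1.83-fold (0.85 ± 0.11, limma adjusted p = 0.0034), a call that held whichever library was left out. Without TGF-β the SOX4-shRNA mean was 0.63 of the scrambled-shRNA mean (-0.65 ± 0.11, limma adjusted p = 0.015). With TGF-β it was 0.81 of it, and this difference did not pass the test (-0.30 ± 0.11, limma adjusted p = 0.19). The first of these calls was lost without any 1 of the 4 scrambled-shRNA libraries (adjusted p from 0.16 to 0.25), and the call on knockdown without any 1 of them or untreated SOX4-shRNA library 2 (0.057 to 0.13). The difference between the responses to TGF-β in the 2 kinds of cells was 0.35 ± 0.15 and did not pass either (limma adjusted p = 1).

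VEGFA, the main blood vessel growth factor, was one of the most highly expressed members under the reading used, and was not called in any comparison. The bounds put on that reading, a total of 25 to 90 FPKM, fixed its place above several members beforehand. They also limited how far it could change, so neither its rank nor the lack of calls is independent of them. Its locus is chromosome 6, 43737921 to 43754224 (GRCh37, plus strand), with 8 exons in its canonical transcript. Its exons overlap ENSG00000272114 on the opposite strand. Its total was 54.0 and 39.7 FPKM in untreated scrambled-shRNA cells, 62.0 and 61.9 FPKM with TGF-β, 59.5 and 52.7 FPKM in untreated SOX4-shRNA cells and 69.9 and 76.9 FPKM in SOX4-shRNA cells with TGF-β. Both TGF-β-treated libraries lay above both untreated ones in each kind of cells, but the 2 untreated scrambled-shRNA libraries were themselves far apart. The log2 change with TGF-β was 0.41 ± 0.15 in scrambled-shRNA cells (limma adjusted p = 0.15) and 0.38 ± 0.15 in SOX4-shRNA cells (adjusted p = 0.18). On knockdown it was 0.27 ± 0.15 without TGF-β (limma adjusted p = 0.41) and 0.24 ± 0.15 with it (adjusted p = 0.52). VEGFA has 10 transcripts in the table, which differ in which exons they join and so in how the protein binds heparan sulfate. NM_001287044 held 46.2% to 56.9% of the total across the libraries, NM_001025370 held 25.7% to 38.2% and NM_003376 held 3.79% to 13.9%. The 7 other forms reached 1 FPKM in at most 5 libraries each, and no VEGFA transcript was called in any comparison.

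VEGFB, which is linked to fatty acid uptake by endothelium, lay between 13.9 and 25.5 FPKM. Chromosome 11 carries the gene, with 7 exons between 64002056 and 64006736 (plus strand, GRCh37). It was at 16.8 and 13.9 FPKM in untreated scrambled-shRNA cells, 16.3 and 17.9 FPKM with TGF-β, 23.1 and 16.8 FPKM in untreated SOX4-shRNA cells and 19.9 and 25.5 FPKM in SOX4-shRNA cells with TGF-β. The libraries overlapped for TGF-β in both kinds of cells. The log2 change on knockdown was 0.35 ± 0.18 without TGF-β (limma adjusted p = 0.37) and 0.38 ± 0.18 with it (adjusted p = 0.36), and neither passed. NM_003377 held 77.8% to 91.1% of the total, and NM_001243733, the shorter form, the rest.

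PGF, a VEGF-family ligand named for the placenta, was low. PGF has 7 exons on chromosome 14, from 75408537 to 75422329 (minus strand, GRCh37). Its total was 3.08 and 2.68 FPKM in untreated scrambled-shRNA cells, 3.82 and 3.66 FPKM with TGF-β, 2.19 and 1.44 FPKM in untreated SOX4-shRNA cells and 3.08 and 3.87 FPKM in SOX4-shRNA cells with TGF-β, from 38 to 98 reads per library. The untreated SOX4-shRNA libraries were the lowest. The total rose with TGF-β in SOX4-shRNA cells (0.68 ± 0.17, limma adjusted p = 0.048). That call was kept in 1 of the 8 fits that left out a library, the one without untreated SOX4-shRNA library 1, and the adjusted p ranged from 0.059 to 0.19 in the other 7. It was 0.066 by voom on the whole reads. In scrambled-shRNA cells the change was 0.29 ± 0.17 (limma adjusted p = 0.33). The 3 PGF transcripts took turns: NM_002632 held 0.00704% of the total in one untreated scrambled-shRNA library and 62.5% in the other, so none of them was read alone.

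PDGFB, the ligand that draws pericytes to new vessels, followed the same order of groups as EDN1. On chromosome 22 the gene covers 39619364 to 39640987 with 7 exons (GRCh37, minus strand). Its total was 7.90 and 7.34 FPKM in untreated scrambled-shRNA cells, 17.8 and 17.7 FPKM with TGF-β, 15.1 and 10.7 FPKM in untreated SOX4-shRNA cells and 22.7 and 33.2 FPKM in SOX4-shRNA cells with TGF-β. The 4 groups did not overlap, and the scrambled-shRNA libraries were much closer to each other than the SOX4-shRNA libraries. The mean rose 2.32-fold with TGF-β in scrambled-shRNA cells (log2 change 1.12 ± 0.20, limma adjusted p = 0.018). In SOX4-shRNA cells it rose 2.17-fold (1.06 ± 0.20, limma adjusted p = 0.019). The SOX4-shRNA means were 1.69-fold and 1.58-fold those of scrambled-shRNA cells, without and with TGF-β, but these differences did not pass (0.67 ± 0.20 and 0.61 ± 0.20, limma adjusted p = 0.12 and 0.17). The first call was lost without any 1 of the 4 scrambled-shRNA libraries (adjusted p from 0.11 to 0.16), and the second without either TGF-β-treated scrambled-shRNA library or without library 2 of either SOX4-shRNA group (0.051 to 0.083). Of the 2 transcripts, NM_033016 held 74.5% to 88.6% of the total. Tested as a transcript it had log2 changes of 1.08 ± 0.22 and 1.09 ± 0.22 for TGF-β, neither of them called (limma adjusted p = 0.074 and 0.066). With a filter at 5 FPKM both were called (0.048 and 0.043).

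FGF2 was higher with the SOX4 shRNA in untreated cells and was not called for TGF-β in either kind of cells. FGF2 spans 123747837 to 123819391 of chromosome 4 with 3 exons (GRCh37, plus strand). Its exons overlap NUDT6 on the opposite strand and AC021205.1 on the same strand, and since no source used here says whether reads were counted by strand, reads of these genes cannot be told apart. FGF2 was at 5.67 and 5.28 FPKM in untreated scrambled-shRNA cells, 5.95 and 5.54 FPKM with TGF-β, 11.3 and 14.3 FPKM in untreated SOX4-shRNA cells and 10.6 and 8.37 FPKM in SOX4-shRNA cells with TGF-β, from 438 to 1462 reads. All 4 SOX4-shRNA libraries lay above all 4 scrambled-shRNA libraries. In untreated cells the mean was 2.34-fold higher with the SOX4 shRNA (1.08 ± 0.15, limma adjusted p = 0.010). That call was lost without either untreated scrambled-shRNA library (adjusted p = 0.081 and 0.082) and held without any other library. With TGF-β the mean was 1.65-fold higher, a difference that did not pass (0.63 ± 0.15, limma adjusted p = 0.077). As a gene total it was called without either untreated SOX4-shRNA library (0.049) and by limma's voom on the whole reads (0.76, adjusted p = 0.03). The log2 change of FGF2 with TGF-β was 0.06 ± 0.15 in scrambled-shRNA cells (limma adjusted p = 0.86) and -0.40 ± 0.15 where SOX4 was targeted (adjusted p = 0.17).

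With TGF-β the libraries lay apart in opposite directions for ANGPTL4 in the 2 kinds of cells. ANGPTL4 maps to chromosome 19, 8428173 to 8439254 (plus strand, GRCh37), and has 7 exons. Its total was 12.9 and 12.4 FPKM in untreated scrambled-shRNA cells and 24.8 and 29.0 FPKM with TGF-β, and 49.6 and 26.4 FPKM in untreated SOX4-shRNA cells and 11.4 and 18.5 FPKM with TGF-β. Both TGF-β-treated libraries lay above the untreated ones in scrambled-shRNA cells and below them in SOX4-shRNA cells. The log2 change was 1.03 ± 0.29 in scrambled-shRNA cells (limma adjusted p = 0.076) and -1.26 ± 0.29 in SOX4-shRNA cells (adjusted p = 0.040). On knockdown it was 1.45 ± 0.29 without TGF-β (limma adjusted p = 0.033) and -0.84 ± 0.29 with it (adjusted p = 0.19). The difference between the 2 responses, tested as an interaction, was -2.29 ± 0.42 with an unadjusted p of 0.00052 and did not pass over all gene totals (limma adjusted p = 0.16). No member passed that test by limma in either form, against 0.323% of gene totals, 0.0755% of single-transcript genes and 0.237% of transcripts called.

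These values of ANGPTL4 depend on 1 library and on 1 decimal mark. The 2 untreated SOX4-shRNA libraries were 49.6 and 26.4 FPKM, and the second of these held 96.54% of the posterior against a reading 10 times lower, 2.64 FPKM. Under that other reading the change on knockdown in untreated cells was -0.01 and that with TGF-β in SOX4-shRNA cells was 0.20 (limma adjusted p = 1 and 0.94). The rise with TGF-β in scrambled-shRNA cells was called without either untreated SOX4-shRNA library (limma adjusted p = 0.026), and the difference between the responses was called without library 2 of that group (-2.73, adjusted p = 0.0095). The fall with TGF-β in SOX4-shRNA cells was also lost without any 1 of the 4 scrambled-shRNA libraries or library 1 of either SOX4-shRNA group (adjusted p from 0.071 to 0.12), and the difference on knockdown without any 1 of the scrambled-shRNA libraries or untreated SOX4-shRNA library 1 (0.07 to 0.17). Of the 3 ANGPTL4 transcripts, NM_139314 held 61.0% to 90.7% of the total and NM_001039667 most of the rest, and neither was called as a transcript.

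ANGPT1 and ANGPT2, the ligands of TEK, were hardly detected. ANGPT1 gave 10 and 7 reads in untreated scrambled-shRNA cells, 3 and 2 with TGF-β, 2 and 2 in untreated SOX4-shRNA cells, and 1 in each library given both the SOX4 shRNA and TGF-β. The untreated scrambled-shRNA libraries were the highest, at 0.144 and 0.134 FPKM, and no test was made at this depth. ANGPT2 gave 2 to 13 reads per library, at 0.0291 to 0.158 FPKM, with libraries that overlapped in all 4 comparisons. Exons of ANGPT2 overlap MCPH1 on the opposite strand.

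The promoters of the 3 members with the steadiest calls are shown for their base composition and for short motifs of factors tied to TGF-β, SOX proteins, GATA proteins and low oxygen. The windows are the 250 bases before the annotated start in RefSeq (GRCh38.p14), 5′ to 3′ on the gene's strand, and 6 of the 10 members were in that table. Capitals mark matches on either strand.

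EDN1, chr6:12290111-12290360, plus strand: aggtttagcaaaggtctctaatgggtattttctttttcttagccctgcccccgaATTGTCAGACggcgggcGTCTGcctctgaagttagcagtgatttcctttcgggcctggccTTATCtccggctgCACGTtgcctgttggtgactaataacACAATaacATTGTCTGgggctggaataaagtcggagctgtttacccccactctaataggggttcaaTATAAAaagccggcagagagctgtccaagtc

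VEGFC, chr4:176792923-176793172, minus strand: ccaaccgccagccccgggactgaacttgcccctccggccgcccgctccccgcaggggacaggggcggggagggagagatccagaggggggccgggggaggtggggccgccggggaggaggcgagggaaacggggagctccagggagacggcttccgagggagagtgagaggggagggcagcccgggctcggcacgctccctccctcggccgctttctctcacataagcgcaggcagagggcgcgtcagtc

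FGF2, chr4:122826581-122826830, plus strand: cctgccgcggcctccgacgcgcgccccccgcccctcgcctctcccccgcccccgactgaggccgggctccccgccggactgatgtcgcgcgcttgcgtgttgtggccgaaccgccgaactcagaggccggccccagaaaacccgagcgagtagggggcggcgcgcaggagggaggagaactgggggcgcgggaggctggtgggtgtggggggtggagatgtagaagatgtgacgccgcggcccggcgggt

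Both strands were searched for 6 motifs. They were CAGAC, the SMAD element, then TGANTCA, the AP-1 site, then GATAA, bound by GATA factors, then ACGTG, the core of the hypoxia response element, then ACAAT, the SOX core, and TATAAA, the TATA box. The EDN1 window held 3 SMAD matches, 3 SOX core matches, 1 each for GATA, hypoxia and the TATA box, and none for TGANTCA. It does hold TGACTAA, which differs from these AP-1 letters at 1 base. The search does not find such variants, so it does not show that the window lacks an AP-1 site. A pair of its SMAD matches each overlap or touch a SOX core match, at positions -191 to -187 beside -196 to -192 and at -86 to -82 overlapping -89 to -85, counted back from the start. How many of all windows hold such neighbours was not counted, so nothing is read from this. The VEGFC and FGF2 windows held none of the 6 motifs. They were also much richer in G and C, at 74.0% and 75.2% against 49.2% for EDN1 and a median of 58.0% over all windows. Of the 35114 windows in the table, 38.0% held the SMAD element, 24.6% the SOX core, 20.4% the GATA site, 18.5% the hypoxia core, 10.7% the TATA box and 6.57% the AP-1 site. RefSeq lists 3 starts for EDN1, of which 1 is shown. These matches describe letters in a window and show no binding.

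Of 15 receptors of these ligands looked up, 7 were at or near 0 in the same cells, 2 reached 1 FPKM and 6 were not settled. FLT1, the receptor of VEGFB and PGF, was listed at 0 in all 8 libraries. KDR, the main VEGFA receptor, stayed at or under 0.0406 FPKM, and FLT4, the VEGFC receptor, at or under 0.0692 FPKM. TEK and TIE1 reached 0.121 and 0.0394 FPKM. The endothelin receptor EDNRB reached 0.0194 FPKM, and PDGFRA reached 0.103 FPKM. EDNRA, the other endothelin receptor, was at 1.65 and 1.88 FPKM in untreated scrambled-shRNA cells, 0.854 and 1.71 FPKM with TGF-β, 0.238 and 0.231 FPKM in untreated SOX4-shRNA cells and 0.146 and 0.109 FPKM in SOX4-shRNA cells with TGF-β. Each SOX4-shRNA library was below every scrambled-shRNA one, and this difference was not tested. PDGFRB, the PDGFB receptor, was between 0.514 and 2.18 FPKM. The decimal marks of NRP1, NRP2 and FGFR1 to FGFR4 were not settled.

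Other genes of the same families were read as gene totals from lists chosen with earlier results of these data known. The shares to read their counts against are those over all gene totals given above, 6.70% and 7.24% for TGF-β in scrambled-shRNA and SOX4-shRNA cells and 4.55% and 4.11% for the SOX4 shRNA without and with TGF-β. Among the 4 of 6 PDGF ligands and receptors that could be fitted, PDGFC and PDGFB rose with TGF-β in scrambled-shRNA cells, and PDGFC, PDGFA and PDGFB in SOX4-shRNA cells. The median log2 change of the 4 was 0.66 and 0.74, against -0.04 over all gene totals in both. PDGFC went from 14.9 and 15.6 FPKM to 32.2 and 27.3 FPKM in scrambled-shRNA cells (0.92 ± 0.15, limma adjusted p = 0.015). Of 15 other secreted factors, 6 could be fitted, and 5 of these rose with TGF-β in scrambled-shRNA cells, the matricellular proteins CCN1 and CCN2, the EGF-family ligands TGFA and HBEGF and the chemokine CXCL8, and all of these but CXCL8 rose in SOX4-shRNA cells. The median change of the 6 was 0.64 and 0.62. CCN2 went from 22.4 and 20.8 to 39.9 and 46.1 FPKM in scrambled-shRNA cells (0.96 ± 0.11, limma adjusted p = 0.0038). CXCL8 was higher with the SOX4 shRNA, at 18.8 and 22.6 FPKM against 4.44 and 4.53 FPKM in untreated cells (1.98 ± 0.13, limma adjusted p = 0.00012). IL6 was called there too, at 2.49 and 3.22 against 0.182 and 0.807 FPKM (1.39 ± 0.25, limma adjusted p = 0.020). In SOX4-shRNA cells the TGF-β calls of CCN1, CCN2 and TGFA held whichever library was left out, those of HBEGF and PDGFC were lost without untreated SOX4-shRNA library 2 (adjusted p = 0.057) and library 1 (0.054) respectively, and that of PDGFA without library 2 of either SOX4-shRNA group or either TGF-β-treated scrambled-shRNA library (0.052 to 0.068). In scrambled-shRNA cells the TGF-β calls of PDGFC, TGFA, HBEGF and CXCL8 were lost without any 1 of the 4 scrambled-shRNA libraries (0.068 to 0.29). That of CCN1 was lost without those 4 or either untreated SOX4-shRNA library (0.051 to 0.29), and that of CCN2 only without TGF-β-treated scrambled-shRNA library 2 (0.068). By voom on the whole reads the calls of CCN1, HBEGF and CXCL8 there were lost as well (0.052 to 0.061). The CXCL8 call on knockdown in untreated cells held in all 8 such fits, and that of IL6 was lost without untreated scrambled-shRNA library 1 (0.12) or untreated SOX4-shRNA library 2 (0.096). Exons of IL6 overlap IL6-AS1 and STEAP1B, and those of CCN2 overlap LINC01013, on the opposite strand.

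Of 11 genes known to restrain vessel growth, 5 could be fitted (ADAMTS1, TIMP3, SPARC, SEMA3A and SERPINF1), and SERPINF1 was called in no comparison. Of the 5, ADAMTS1, TIMP3 and SPARC rose with TGF-β in scrambled-shRNA cells and TIMP3 and SPARC in SOX4-shRNA cells. TIMP3, a VEGF receptor antagonist and protease inhibitor, went from 29.2 and 27.7 FPKM to 59.8 and 65.3 FPKM in SOX4-shRNA cells (1.11 ± 0.10, limma adjusted p = 0.00074). ADAMTS1 was at 5.66 and 6.10 FPKM in untreated scrambled-shRNA cells, against 0.906 and 0.826 FPKM with the SOX4 shRNA (-1.88 ± 0.12, limma adjusted p = 0.00010). SEMA3A, a semaphorin that competes for neuropilins, was lower on knockdown with TGF-β (-0.71 ± 0.15, limma adjusted p = 0.044). FGFBP1, the carrier that releases FGF2 from the matrix, fell with TGF-β, from 413 and 492 to 249 and 252 FPKM in scrambled-shRNA cells (-0.85 ± 0.12, limma adjusted p = 0.0065). In SOX4-shRNA cells it fell from 437 and 495 to 258 and 260 FPKM (-0.84 ± 0.12, limma adjusted p = 0.0050). Without 1 library, the calls of ADAMTS1, TIMP3, SPARC and FGFBP1 in scrambled-shRNA cells were lost without any 1 of the 4 scrambled-shRNA libraries (adjusted p from 0.054 to 0.15), except that ADAMTS1 was called without untreated library 2 and FGFBP1 without untreated library 1. The ADAMTS1 calls on knockdown and those of TIMP3 and FGFBP1 in SOX4-shRNA cells held in all 8. SPARC in SOX4-shRNA cells was called in 1 of the 8, the one without untreated SOX4-shRNA library 1 (0.059 to 0.12 in the others), and SEMA3A was called in none of them (0.051 to 0.3). Exons of SPARC overlap CLMAT3 on the opposite strand.

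Of 10 regulators of the oxygen response, 5 could be fitted (EPAS1, HIF1AN, EGLN1, EGLN3 and VHL). By limma 0 of these 5 were called in any comparison, against the shares over all gene totals given above. So few genes do not speak for the class. EPAS1 lay between 17.4 and 21.7 FPKM in all libraries. Among 10 hypoxia-responsive genes, 4 could be fitted (ADM, BNIP3, SLC2A1 and PGK1). Of these, 1 was called, the glycolytic enzyme PGK1, which was lower with the SOX4 shRNA. It was at 173 and 189 FPKM in untreated scrambled-shRNA cells, against 95.1 and 97.7 FPKM in untreated SOX4-shRNA cells (-0.90 ± 0.10, limma adjusted p = 0.0032). With TGF-β it was lower too (-1.03 ± 0.10, limma adjusted p = 0.0017), and both calls held whichever library was left out. ANGPTL4, also induced by low oxygen, was called higher with the SOX4 shRNA in untreated cells as a gene total. That call depends on 1 decimal mark, as given above. With TGF-β its change on knockdown was -0.84 and was not called. Exons of PGK1 overlap ATP7A and the pseudogene C4orf46P2 on the same strand.

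For the 4 called members with the smallest p, the genes of most similar pattern were looked up among 690 single-transcript genes that were called in at least 1 comparison. The measure was Pearson's r of log2(FPKM + 1) over the 8 libraries, which share 4 groups of 2, and it is given as a description. VEGFC was closest to RBMS2 (r = 0.996), RFTN1 (0.995) and XYLT1 (0.988). EDN1 was closest to SFRP1 (0.990), NUAK1 (0.984) and CDS1 (0.974). FGF2 was closest to PRUNE2 (0.982), RHOBTB3 (0.981) and ATP13A3 (0.980), and PDGFB to JUN (0.976), KCNG1 (0.963) and BHLHA15 (0.961). Of these 12 genes, RFTN1, XYLT1, PRUNE2, RHOBTB3, ATP13A3, KCNG1, BHLHA15 and RBMS2 share exon sequence with a gene on the opposite strand. The secreted WNT antagonist SFRP1 was at 21.9 and 22.1 FPKM in untreated scrambled-shRNA cells, 37.6 and 37.2 FPKM with TGF-β, 32.1 and 30.7 FPKM in untreated SOX4-shRNA cells and 65.4 and 60.3 FPKM in SOX4-shRNA cells with TGF-β. XYLT1, which starts glycosaminoglycan chains, moved more than VEGFC: it was at 0.937 and 0.797 FPKM in untreated SOX4-shRNA cells and 22.9 and 21.3 FPKM in scrambled-shRNA cells with TGF-β.

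**Figure D4:**
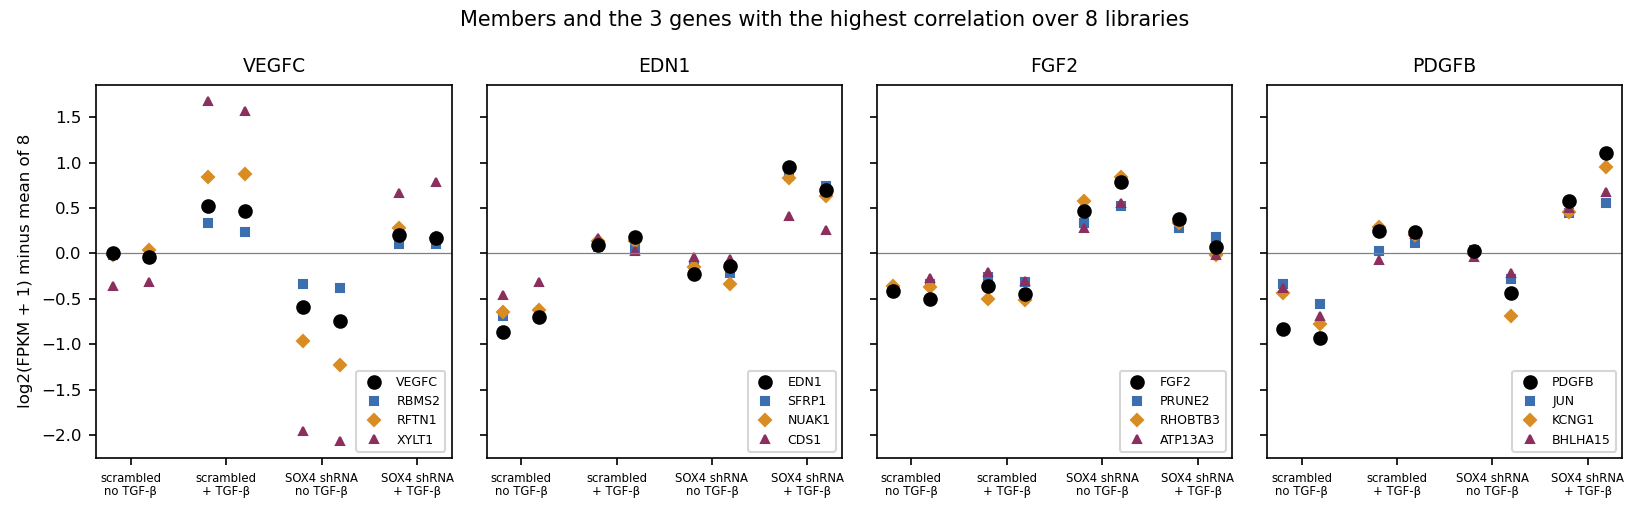
Level of VEGFC, EDN1, FGF2 and PDGFB (black circles) and the 3 genes with the highest Pearson correlation to each (y axis, log2(FPKM + 1) minus the gene's mean over the 8 libraries, x axis, 2 libraries per group). XYLT1 spans a wider range than VEGFC, from 0.797 to 22.9 FPKM.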

How the data were processed

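The authors' deposited table held FPKM values per RefSeq transcript, 1 column per library. TopHat2 2.0.9, Cufflinks 2.2.1 and Cuffdiff with the hg19 build are named for it, per the submitters' processing notes, and how strand was treated is not given in the sources used here. In 34.1% of the cells the deposited decimal mark was lost, and 13.9% held damaged exponent notation. Marks were restored by searching for transcript lengths and readings under which the values of a gene are whole reads in all 8 libraries, given the library's scale. The lengths were thus fitted rather than known. For VEGFA, ANGPT2 and ANGPTL4, length differences between forms came partly from the exon structure. Among several whole readings, the score described in the results chose 1, and other lost marks were restored by that score alone. Symbols were matched for 97.76% of the transcripts. Whole-read totals were kept for 7126 genes, with a posterior of at least 0.95 except for SOX4. SOX4 was kept as a label check at 88.3%. Left out were 212 genes for a lower posterior and 125 because 2 libraries of a group lay over 4-fold apart. A further 12 were left out for a whole reading far from the best-scored one, a check that was not applied to the members. The VEGFA total was taken between 25 and 90 FPKM, with no transcript at 60 FPKM or above, which is an assumption.

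Transcripts or gene totals with at least 1 FPKM in at least 2 libraries were tested with limma 3.58.1 in R 4.3.3 on log2(FPKM + 1), with 4 groups in 1 fit, an intensity trend and no replicate block. Restored FPKM are not counts as deposited, so no count model gave a main result. On simulated data, the restoration was checked for genes of 1 transcript and known length, and the test with the same spread in all groups. Genes of several transcripts and groups of unequal spread were not simulated. The depth behind each library is given in the results, and 2 libraries per group limit the precision. The sources do not show that equal replicate numbers pair samples: the correlations of the replicate differences between groups were -0.2228, 0.5278, -0.4652, -0.3956, 0.3749 and -0.6439 over 7124 genes.

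Named were all 10 members, SOX4, from each list the genes called in a comparison (at most 4 by p) and the 3 genes most correlated with each of the 4 called members of smallest p. CCN1 in scrambled-shRNA cells was outside that rule and was named after its value was seen. The members and lists were chosen with earlier results of these data known. Alternatives were the pseudocount, the filter, the scaling, the trend, the replicate block, the way of restoring marks, gene totals and leaving out each library. A crossed block, voom on whole reads, all transcripts whatever the posterior and another reading of ANGPTL4 were added after seeing the data.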

Additional observations from a re-analysis of the deposited data

Results flagged for a closer look

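The response of ANGPTL4 to TGF-β differed between scrambled-shRNA and SOX4-shRNA cells by -2.29 ± 0.42 on the log2 scale (limma, unadjusted p = 0.00052, adjusted p = 0.16). It was singled out because both TGF-β-treated libraries lay above the untreated ones in scrambled-shRNA cells and below them in SOX4-shRNA cells. The decimal mark behind 1 of the 8 values bears on this difference, and the reading used held 96.54% of the posterior. Under the other reading, untreated SOX4-shRNA library 2 was at 2.64 FPKM, below both treated ones at 11.4 and 18.5 FPKM. The separation in SOX4-shRNA cells then ended. The change with TGF-β there was 0.20, against 1.03 in scrambled-shRNA cells.

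The chemokine CXCL8 showed the same kind of difference, of -0.98 (limma, unadjusted p = 0.00062, adjusted p = 0.17). It was at 4.44 and 4.53 FPKM in untreated scrambled-shRNA cells and 6.98 and 7.99 FPKM with TGF-β, and at 18.8 and 22.6 FPKM in untreated SOX4-shRNA cells and 16.5 and 15.4 FPKM with TGF-β. Neither difference passed over all gene totals, and both genes were looked at because of these values.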

How the results depend on the processing

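VEGFC with TGF-β in SOX4-shRNA cells, EDN1 as a gene total there and FGF2 on knockdown in untreated cells were called under every alternative that keeps all 8 libraries. The number of members called with TGF-β in scrambled-shRNA cells, 2, was 1 with no filter, without the trend or with all transcripts, and 3 with a filter at 5 FPKM. The transcripts called in that comparison moved too, from 143 of 10145. They were 247 of 30102 with no filter, 90 of 10145 without the trend and 208 of 5744 with the filter at 5 FPKM. In SOX4-shRNA cells, 1 became 2 with a filter at 5 FPKM and 5 as gene totals. With that filter 271 of 5744 transcripts were called there, against 233 of 10145. On knockdown 2 became 4 as gene totals without TGF-β, and 0 became 1 with it, while voom called 2 gene totals there instead of 1. Leaving out 1 library changed the number of members called as well. Each such fit has 1 library in a group, and calls over all features moved too, as given above for TGF-β in scrambled-shRNA cells. Those numbers are therefore not read as a result about the members. The cause was not tested.

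The replicate numbers do not pair the samples by the labels. With the replicate number as a replicate block, 0 members were called as designed with TGF-β in scrambled-shRNA cells. The block called 157 of 5301 single-transcript genes and 46 of 10145 transcripts there. As gene totals EDN1 and PDGFB stayed called in that comparison, and VEGFC was lost (limma adjusted p = 0.067). For TGF-β in SOX4-shRNA cells, and knockdown without and with TGF-β, the gene totals called were 3, 2 and 0. The fit without a block had 5, 4 and 1. Both EDN1 calls on knockdown were among those lost (limma adjusted p = 0.1 and 0.074). Over all gene totals the fit with the block called 218, 300, 174 and 144 where the other fit called 477, 516, 324 and 293. With the numbers of the TGF-β-treated groups crossed, an alternative added after seeing the data, 3, 3, 2 and 1 members were called in the 4 comparisons and 5, 7, 7 and 6 of their gene totals, with 1 for the interaction. Calls rose over all gene totals too, to 1683, 1626, 1089 and 893.

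Of the recomputed fold changes, 27 had the other sign. Only 2 of these had been called, those of ANGPTL4 under its other reading: 0.20 with TGF-β in SOX4-shRNA cells and -0.01 on knockdown in untreated cells. The rest had not been called. As gene totals the interaction was 0.09 for EDN1 and 0.03 for VEGFB, where their leading transcripts had -0.37 and -0.12. For the PGF transcript NM_002632 the change on knockdown in untreated cells (-0.07) was 0.35 with a pseudocount of 0.1, and its interaction (-0.90) was 0.46 with marks restored without whole reads and 0.39 as a gene total. The SOX4 interaction (-0.37) was 0.01 by voom.

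Leaving out 1 library turned the sign of 10 uncalled values, given here as the range over the 8 such fits. The interaction of the gene total ranged from -0.04 to 0.21 for EDN1, -0.25 to 0.19 for VEGFA, -0.19 to 0.25 for VEGFB and -0.33 to 0.20 for PDGFB. For the leading transcripts it ranged from -0.21 to 0.10 (VEGFA) and -0.33 to 0.10 (VEGFB). The change of VEGFB with TGF-β in SOX4-shRNA cells ranged from -0.03 to 0.40 as a total and from -0.10 to 0.33 for its leading transcript. That of PGF on knockdown ranged from -0.22 to 0.04 with TGF-β, as a total, and from -0.78 to 0.64 without it, for NM_002632.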
